A study of Homo sapiens with 6 samples.

Results

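Interferon-stimulated genes (ISGs) are genes whose transcription is raised when a cell senses interferon, and their products block virus entry, degrade or bind viral RNA, or modify proteins. A total of 50 ISGs, chosen by gene symbol, were followed gene by gene among the 58825 genes measured by RNA-seq in NCI-H460, an established human lung cancer cell line. The cells had been infected with lentivirus carrying a short hairpin RNA (shRNA) against PRMT5 or a control shRNA. PRMT5 is an enzyme that symmetrically dimethylates arginines of histones and other proteins. The labels name the control GFPkd, GFP being a jellyfish gene that human cells lack. The study calls it control or NC-shRNA and names no target for it. The control hairpin is called NC-shRNA here and the PRMT5 hairpin PRMT5-shRNA, with 3 libraries in each group. The study describes these as biological replicates of stable cell lines. Both groups therefore carried a lentivirus and a hairpin, and neither the labels nor the methods name added interferon for these libraries. The labels do not say which PRMT5 hairpin was sequenced, so the loss of PRMT5 and another effect of that hairpin cannot be told apart.

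As background, type I and type III interferons bind cell surface receptors whose kinases activate a transcription factor complex that includes STAT2 and IRF9. This complex binds the interferon-stimulated response element (ISRE) in ISG promoters, whereas interferon gamma acts at gamma-activated sites (GAS). Many cancer cells keep part of this programme running without added interferon, while other ISGs stay almost silent until interferon arrives. The comparison asked which of the 50 genes were already expressed in NCI-H460 cells, which were near-silent, and which of either kind differed between PRMT5-shRNA and NC-shRNA cells.

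The total count per library was 53531257 to 70518401. Low counts gathered at 4, with 1214 to 1319 genes at exactly 4 counts and 283 to 546 genes at 3 or 5, so a count is not 1 sequenced fragment. If each fragment gave 4 counts, the libraries held 13382814 to 17629600 fragments. CPM below is the count scaled to library size by edgeR with TMM factors. PRMT5 was lower in the PRMT5-shRNA libraries, at 45.8, 45.6 and 38.3 CPM against 143, 127 and 128 CPM (log2 fold change -1.62 ± 0.09 SE, edgeR adjusted p = 0.0063). Epithelial keratins were abundant, with a summed epithelial marker level of 344 to 361 FPKM in NC-shRNA and 318 to 329 FPKM in PRMT5-shRNA libraries, ranges that did not overlap, although EPCAM and CDH1 had at most 105 and 121 counts in any library. The 8 leukocyte markers summed to 6.58 to 8.69 FPKM in NC-shRNA and 6.54 to 7.74 FPKM in PRMT5-shRNA libraries, and CD3E was at 0 in every library. The 6 endothelial markers summed to 1.45 to 1.6 FPKM in NC-shRNA and 2.18 to 2.76 FPKM in PRMT5-shRNA libraries, and VWF, KDR and CLEC14A were at 0 counts in every NC-shRNA library. All 6 of these endothelial markers were fitted higher in PRMT5-shRNA cells, TEK by only 0.010 on the log2 scale. Of the 6, 5 had an unadjusted p under 0.05, against 6.54% of all genes on the higher side. VWF, at 128, 105 and 122 counts in the PRMT5-shRNA libraries, also had an edgeR adjusted p of 0.034. This is the same direction as that of the higher ISGs. The 6 fibroblast markers summed to 10.3 to 11.4 FPKM in NC-shRNA and 10.2 to 12.4 FPKM in PRMT5-shRNA libraries. Of these, COL3A1 (log2 fold change 0.87 ± 0.13 SE, edgeR adjusted p = 0.110) and PDGFRB (0.57 ± 0.15 SE, edgeR adjusted p = 0.231) had an unadjusted p under 0.05, DCN was at 5.05 to 7.32 FPKM and PDGFRA was at 0 in every library. The part of these marker differences in the ISG differences was not tested. In bulk RNA, more cells that express a gene and more RNA per cell cannot be told apart.

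All 50 ISGs had enough counts to be tested, and their levels in FPKM, which corrects for gene length, ran from 0.020 for XAF1 to 121 for IFITM3. Genes with a mean of at least 1 FPKM over the 6 libraries were called basally expressed, which held for 36 ISGs, and the other 14 were called near-silent. The line fell between RSAD2 at 0.995 FPKM and ISG20 at 1.05 FPKM. ISG20 passed it only through its PRMT5-shRNA level of 1.13 FPKM, and at 0.967 FPKM in NC-shRNA cells alone it would be near-silent. The near-silent ISGs were MX1, MX2, GBP2, GBP3, GBP4, GBP5, IFI27, RSAD2, CMPK2, IRF7, XAF1, SAMD9L, EPSTI1 and RTP4. The most abundant were IFITM3, BST2 at 97.5 FPKM, LGALS3BP at 71.8 FPKM, IFITM2 at 35.9 FPKM and ISG15 at 31.0 FPKM. Summed over the 50 genes, the level was 594 to 651 FPKM in NC-shRNA and 579 to 613 FPKM in PRMT5-shRNA libraries, and these ranges overlapped.

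With the quasi-likelihood test of edgeR over 20295 genes, none of the 50 ISGs reached an adjusted p under 0.05, and the smallest adjusted p was 0.110, for MX1. At that threshold 10 genes (0.0493%) of all those tested were higher and 4 (0.0197%) lower. At an unadjusted p under 0.05, 9 ISGs (18%) were higher against 6.54% of all genes, and 4 (8%) were lower against 6.29%, so the share of lower ISGs was close to the background. With a fold change over 1.5 as well, 5 ISGs (10%) were higher against 2.53% of all genes, and 0 were lower against 1.29%. Those 5 were MX1, MX2, GBP2, IFI27 and IFITM1. Leaving out NC-shRNA replicate 3 or PRMT5-shRNA replicate 3 brought the count to 3 (MX1, MX2 and GBP2), against 3.07% and 2.02% of all genes. The groups did not overlap in CPM for 13 ISGs that were higher (26%, against 11.0% of all genes) and for 3 that were lower (6%, against 10.7%). DESeq2 called 237 higher and 164 lower genes among 32174 with a p-value, and MX1, MX2 and IFI44 among the ISGs. With limma on log2(FPKM + 1) and a minimum mean of 0.5 FPKM, 10 higher and 5 lower genes were called among 14707. None of the 43 ISGs tested there was called.

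Of the 5 ISGs past both thresholds, 4 were near-silent. Of the 14 near-silent ISGs, 11 (78.6%) were fitted higher in PRMT5-shRNA cells, against 58.1% of all 7881 near-silent genes tested. The 11 include XAF1, whose counts were too low for a usable estimate. Over all near-silent genes tested the median log2 fold change was 0.097, and over the 14 ISGs it was 0.21. An unadjusted p under 0.05 with a fold change over 1.5 was met by 4 of them (28.6%) on the higher side, against 4.81% of near-silent genes, and by 0 on the lower side, against 1.84%. Of the 36 basally expressed ISGs, 22 (61.1%) were fitted higher, against 46.8% of all 12414 such genes, and 14 lower. Over all such genes the median was -0.015, and over the 36 ISGs it was 0.045. Only IFITM1 met both thresholds on the higher side among them (2.78%, against 1.08% of basally expressed genes), and 0 did on the lower side, against 0.942%. Taken per library as the median difference from the NC-shRNA mean, the near-silent ISGs stood at 0.21 to 0.30 on the log2 scale in the PRMT5-shRNA libraries and at -0.0032 to 0.028 in the NC-shRNA libraries. The basally expressed ISGs stood at 0.012 to 0.047 and -0.035 to 0.0086. Neither pair of ranges overlapped, but the basal difference was small. The NC-shRNA libraries were measured from their own mean and lie near 0 by construction, so the lack of overlap is not a test. The same medians per library were not taken over all near-silent or all basally expressed genes. Whether the 2 classes differ from each other was not tested, and the near-silent median moved between 0.14 and 0.39 when 1 library was left out. On log2(FPKM + 1) the order of the classes turned, with a median of 0.072 for near-silent and 0.095 for basally expressed ISGs.

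**Figure D1:**
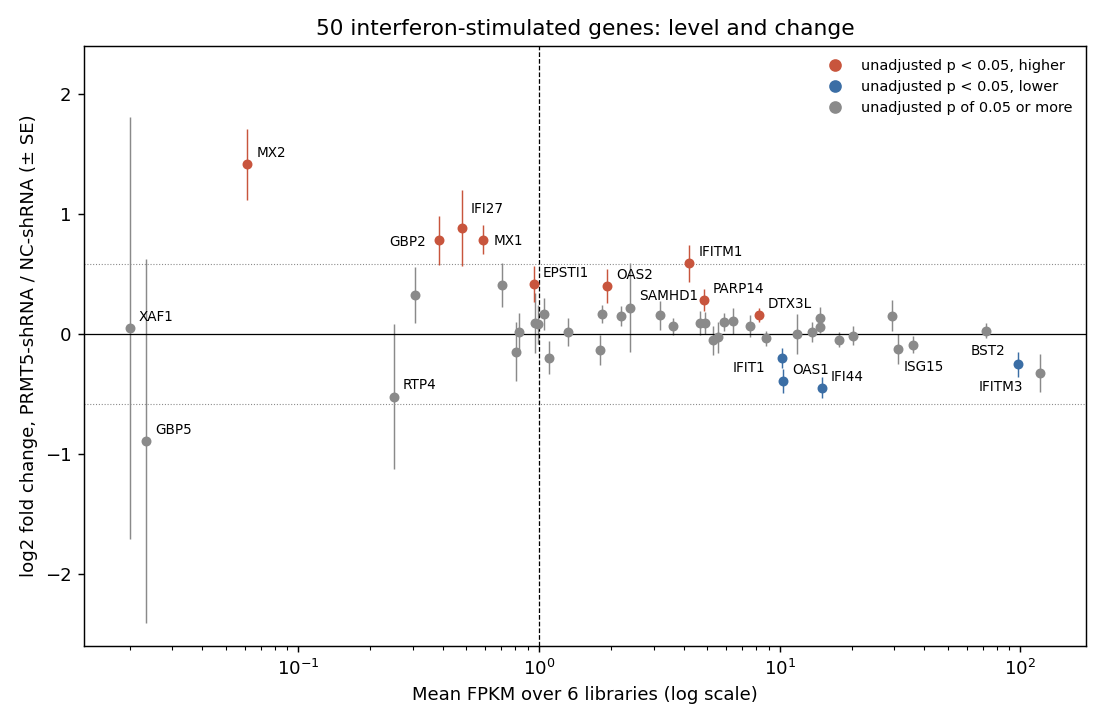
Log2 fold change (PRMT5-shRNA over NC-shRNA, y axis, points with ± SE bars) of the 50 ISGs against their mean FPKM over 6 libraries (x axis, log scale), with the dashed line at 1 FPKM and dotted lines at a fold change of 1.5. Red and blue points have an unadjusted p under 0.05; 4 of the 5 red points above the upper dotted line lie left of 1 FPKM, and IFITM1 lies right of it.

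The promoters of the ISGs were searched for these elements, to show what the genes share beside their response. Of the 50 ISGs, 41 had an entry in the RefSeq promoter table (GRCh38.p14), and the 250 bases before the RefSeq start site were searched on both strands for GAAANNGAAA, the core of the ISRE, and TTCNNNGAA, the core of a GAS. The ISRE core was found in 25 of the 41 ISG windows (61%) against 3.02% of 35116 windows in the table, and the GAS core in 10 (24.4%) against 6.57%. Among the 10 ISGs with a window and an unadjusted p under 0.05, 8 held the ISRE core and 7 the GAS core, and among the 31 others 17 and 3 did. In MX1, IFI27, BST2 and EPSTI1 the matches to both cores overlapped, so those matches share letters. BST2 held 1 further GAS match, 58 bases before its start, that overlapped no ISRE match. These are matches of letters, not bound sites, and no test was made. Of the 6 ISGs with the smallest p, MX1, IFI44, OAS1 and IFITM1 had a window, and all but OAS1 held the exact ISRE core. The OAS1 window holds gaaacgaaa near its end, a closer spacing that the exact pattern does not take. For the 3 genes with the exact core, 30 bases around the match are printed on the plus strand, which is also the strand of the gene. Capitals mark the ISRE core, read in the reverse direction in MX1 and IFI44.
MX1 (chr21:41431844-41431873, match 196 bases before the RefSeq start): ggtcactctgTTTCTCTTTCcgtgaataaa
IFITM1 (chr11:313990-314019, match 40 bases before the RefSeq start): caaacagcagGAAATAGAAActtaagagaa
IFI44 (chr1:78649761-78649790, match 60 bases before the RefSeq start): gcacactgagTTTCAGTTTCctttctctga
MX1 and IFITM1 were higher and IFI44 lower in PRMT5-shRNA cells, and each held an ISRE core in its window. GENCODE also annotates longer transcripts of MX1 and IFITM1 whose 5′ untranslated regions cover these matches, with the genes beginning at 41420304 and 313506, so the matches lie upstream of the RefSeq start and not of every annotated transcript. For IFI44, which had the smallest p among the lower ISGs, the 215 bases of the window that precede the gene's first annotated base are given for context (chr1:78649581-78649795, plus strand), with the same match in capitals.
IFI44: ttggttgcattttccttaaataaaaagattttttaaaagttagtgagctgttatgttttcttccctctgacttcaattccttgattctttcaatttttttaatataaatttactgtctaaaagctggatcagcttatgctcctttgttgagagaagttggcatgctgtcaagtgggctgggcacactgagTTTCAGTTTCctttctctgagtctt

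Among the GTPases, both MX genes and GBP2 were higher in PRMT5-shRNA cells. MX1 and MX2 encode dynamin-like GTPases that trap viral nucleoproteins or capsids, and they lie side by side on chromosome 21 (GRCh38, chr21:41361943-41459214, plus strand). MX1, whose promoter match is shown above, was at 4.19, 4.53 and 4.31 CPM in NC-shRNA and 7.33, 7.91 and 7.25 CPM in PRMT5-shRNA libraries. All 3 PRMT5-shRNA libraries were above all 3 controls, and the gap was wider than the spread within either group. The log2 fold change of MX1 was 0.79 ± 0.12 (SE, edgeR adjusted p = 0.110), a fold of 1.73, with a mean level of 0.420 ± 0.026 FPKM in NC-shRNA and 0.753 ± 0.032 FPKM in PRMT5-shRNA cells (SD, 3 libraries each). MX2 was hardly detected, with 37, 34 and 33 counts in NC-shRNA and 53, 115 and 91 counts in PRMT5-shRNA libraries. In CPM it was at 0.551, 0.490 and 0.531 against 0.971, 1.64 and 1.58, so PRMT5-shRNA replicate 1 stood nearer to the controls than the other two. Its log2 fold change of 1.41 ± 0.30 (SE, edgeR adjusted p = 0.188) was the highest among the 50 ISGs. MX1 and MX2 shared at most 0.31% of their 50-base transcript words with any other gene, 50 bases being the read length that the study's methods name.

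The guanylate-binding proteins (GBPs) are GTPases that coat intracellular microbes, and 5 of them formed a cluster on chromosome 1. GBP2 was at 2.61, 2.65 and 1.93 CPM in NC-shRNA and 4.09, 3.50 and 4.78 CPM in PRMT5-shRNA libraries, and the groups did not overlap. Its log2 fold change was 0.78 ± 0.20 (SE, edgeR adjusted p = 0.233), at a mean of 0.277 FPKM in NC-shRNA cells. GBP2 shares 10.2% of its 50-base words with other genes, GBP7, GBP1P1 and GBP1 among them. Its exons overlap those of GBP7 on the same strand, but GBP7 had 0 counts in every library. GBP1, in contrast, had 427 to 549 counts, so how reads were divided between GBP2 and GBP1 is uncertain. GBP1, the only basally expressed member of this group at 1.32 FPKM, had a log2 fold change of 0.018 ± 0.11 (95% interval -0.25 to 0.29). GBP4 had 0.33 ± 0.23 and GBP3 -0.15 ± 0.24, and their groups overlapped. GBP5 had 20, 33 and 8 counts in NC-shRNA and 27, 0 and 0 counts in PRMT5-shRNA libraries, so its fitted value of -0.89 ± 1.52 rested on almost no reads.

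The IFI genes held a higher member and a lower member. IFI27, which encodes a small membrane protein of mitochondria, was at 2.31, 0.966 and 1.75 CPM in NC-shRNA and 2.77, 3.15 and 3.37 CPM in PRMT5-shRNA libraries. The groups did not overlap, but the NC-shRNA libraries were spread more than 2-fold, with replicate 2 the lowest. The log2 fold change was 0.88 ± 0.32 (SE, edgeR adjusted p = 0.327). IFI44, a cytoplasmic protein of little known function, was basally expressed and lower, at 40.2, 42.0 and 42.0 CPM in NC-shRNA and 27.2, 31.9 and 32.1 CPM in PRMT5-shRNA libraries. Every PRMT5-shRNA library was below every control, with replicate 1 the lowest. Its log2 fold change was -0.45 ± 0.09 (SE, edgeR adjusted p = 0.183), or 73.3% of the NC-shRNA level. IFI44L, its neighbour on chromosome 1, had -0.13 ± 0.13 at 1.80 FPKM with overlapping groups. IFI6, at 11.8 FPKM, had 0.00036 ± 0.17 (95% interval -0.39 to 0.39), and IFI35 had 0.11 ± 0.11.

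The OAS family differed within itself. OAS1, OAS2 and OAS3 make the 2′-5′ oligoadenylates that activate RNase L, whereas OASL lacks that activity, and OAS1, OAS3 and OAS2 lie in a row on chromosome 12 (GRCh38, chr12:112906777-113011723). OAS1 was at 73.3, 72.5 and 58.7 CPM in NC-shRNA and 53.4, 54.0 and 48.7 CPM in PRMT5-shRNA libraries. The groups did not overlap, although NC-shRNA replicate 3 stood closer to the PRMT5-shRNA libraries than to the other controls. The log2 fold change of OAS1 was -0.39 ± 0.10 (SE, edgeR adjusted p = 0.239), or 76.4% of control. OAS2, in contrast, was at 11.1, 11.6 and 13.7 CPM in NC-shRNA and 14.2, 15.3 and 18.5 CPM in PRMT5-shRNA libraries, without overlap (0.40 ± 0.14 SE, edgeR adjusted p = 0.326). OAS3, which lies between them, had -0.045 ± 0.06 at 17.7 FPKM, with a 95% interval of -0.19 to 0.10. OASL, at 14.8 FPKM, had 0.13 ± 0.09. An antisense transcript annotated opposite OAS1 had 0 counts in every library.

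Because OAS1 and OAS2 differed in opposite directions, their ratio was taken within each library, which removes the scaling between libraries. This and the following 2 ratios were chosen after the values had been seen. The OAS2/OAS1 ratio of FPKM was 0.119, 0.127 and 0.184 in NC-shRNA and 0.210, 0.223 and 0.299 in PRMT5-shRNA libraries, so it was higher in all 3 PRMT5-shRNA libraries. The IFITM1/IFITM3 ratio was 0.0262, 0.0222 and 0.0277 against 0.0476, 0.0418 and 0.0513, again without overlap. The MX2/MX1 ratio was 0.0769, 0.0682 and 0.0698 against 0.0811, 0.139 and 0.151, with PRMT5-shRNA replicate 1 close to the controls. A two-sided exact permutation test on the log2 ratios of counts gave p = 0.10 for each pair, the smallest value that 3 against 3 libraries allow. For OAS2/OAS1 this outcome was fixed, because the groups of neither gene overlapped and the genes differed in opposite directions. As the pairs were picked from these same values, the p-values lend no support. A ratio shows unequal change of its 2 genes and not which of them moved.

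**Figure D2:**
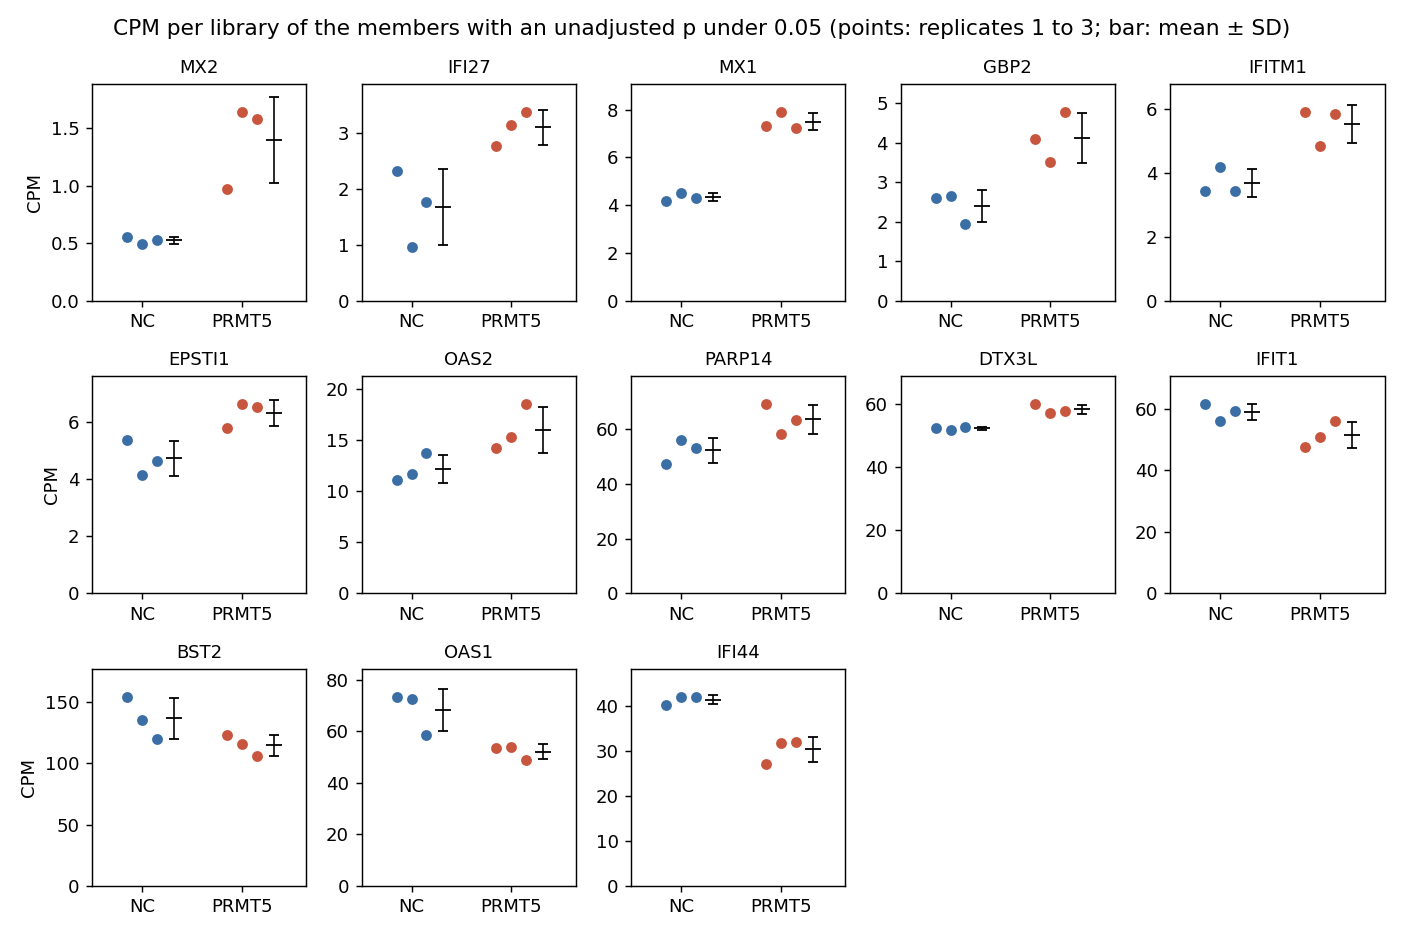
CPM (y axis, from 0, a scale for each panel) of the 13 ISGs with an unadjusted p under 0.05 in the 3 NC-shRNA (blue) and 3 PRMT5-shRNA (red) libraries, with the mean ± SD drawn beside the points. The groups are apart in 12 of the panels and overlap in BST2, where the lowest control was 120 CPM and the highest PRMT5-shRNA library 123 CPM.

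Among the membrane restriction factors, IFITM1 and BST2 stood on opposite sides. The IFITM proteins hinder fusion of viruses with the cell, and BST2 (tetherin) holds budding virions at the cell surface. IFITM1 was at 3.43, 4.17 and 3.43 CPM in NC-shRNA and 5.90, 4.85 and 5.84 CPM in PRMT5-shRNA libraries. The groups did not overlap, and the log2 fold change was 0.59 ± 0.16 (SE, edgeR adjusted p = 0.244), a fold of 1.504 that lies just past the 1.5-fold threshold. IFITM2, at 35.9 FPKM, had -0.088 ± 0.07 (95% interval -0.26 to 0.08). IFITM3 had -0.33 ± 0.16, but NC-shRNA replicate 2 alone was high, at 231 CPM beside 161 and 152 CPM in the other controls and 139 to 152 CPM in the PRMT5-shRNA libraries. IFITM1 and IFITM2 overlap in annotated exons on the same strand of chromosome 11, and 32.0% of the 50-base words of IFITM1 and 34.1% of those of IFITM2 occur in other genes, mainly in each other and in IFITM3. How reads were divided among the 3 IFITM genes is therefore uncertain, and the level of IFITM1, at 4.21 FPKM, was far below both relatives. BST2 was at 154, 136 and 120 CPM in NC-shRNA and 123, 116 and 106 CPM in PRMT5-shRNA libraries, with overlapping groups (-0.25 ± 0.10 SE, edgeR adjusted p = 0.383).

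The IFIT genes bind the 5′ ends of viral RNA or hold partner IFIT proteins, and all 4 were basally expressed, from 7.55 FPKM for IFIT5 to 20.2 FPKM for IFIT3. IFIT1 was at 61.5, 56.1 and 59.3 CPM in NC-shRNA and 47.5, 50.8 and 55.9 CPM in PRMT5-shRNA libraries. The groups did not overlap in CPM, but the highest PRMT5-shRNA library was almost level with the lowest control. In FPKM they did overlap, with PRMT5-shRNA replicate 3 at 10.66 and NC-shRNA replicate 2 at 10.2. The log2 fold change of IFIT1 was -0.20 ± 0.08 (SE, edgeR adjusted p = 0.383). IFIT2, IFIT3 and IFIT5 had 0.020 ± 0.08, -0.013 ± 0.08 and 0.065 ± 0.09, and the 95% interval of IFIT3 ran from -0.20 to 0.17.

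ISG15, a ubiquitin-like protein, and the enzymes around it showed no difference past an unadjusted p of 0.05. ISG15 had a log2 fold change of -0.12 ± 0.13 (95% interval -0.42 to 0.17) at 31.0 FPKM. USP18, which removes ISG15 from proteins, had -0.028 ± 0.13, with 23.4% of its 50-base words shared with other genes, USP41 among them. The ligases HERC5 and HERC6 had 0.090 ± 0.09 and -0.20 ± 0.14, and TRIM21, an intracellular antibody receptor, had -0.053 ± 0.12. TRIM25, the ubiquitin ligase of RIG-I, was at 158, 160 and 160 CPM in NC-shRNA and 170, 167 and 162 CPM in PRMT5-shRNA libraries. The groups did not overlap, yet the log2 fold change was only 0.061 ± 0.05 (SE, edgeR adjusted p = 0.657).

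The ADP-ribosylation genes were fitted higher in all 4 cases, by small amounts, beside 46.8% of all basally expressed genes. PARP9 and DTX3L form a ubiquitin ligase complex, and together with PARP14, a mono-ADP-ribosyltransferase, they lie in a cluster on chromosome 3. DTX3L was at 52.3, 51.9 and 52.6 CPM in NC-shRNA and 59.8, 57.2 and 57.8 CPM in PRMT5-shRNA libraries. The libraries of each group lay close together and the groups were apart (log2 fold change 0.16 ± 0.06 SE, edgeR adjusted p = 0.338). PARP14 was at 47.4, 56.1 and 53.3 CPM in NC-shRNA and 69.1, 58.2 and 63.5 CPM in PRMT5-shRNA libraries, without overlap (0.28 ± 0.09 SE, edgeR adjusted p = 0.307). PARP9 had 0.067 ± 0.07 and PARP12 0.092 ± 0.10. PARP9 and DTX3L overlap on opposite strands, and the counting of strand is not given in the sources used here, so reads from their overlap may have been counted for either.

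None of the enzymes of nucleic acids and nucleotides had an unadjusted p under 0.05. Their levels ran from 0.832 FPKM for CMPK2, a mitochondrial nucleotide kinase, to 29.3 FPKM for ADAR, the RNA-editing deaminase. RSAD2 (viperin), which lies next to CMPK2, had 0.082 ± 0.16, CMPK2 0.015 ± 0.16, the exonuclease ISG20 0.17 ± 0.13 and EIF2AK2 (PKR), the kinase that stops translation on double-stranded RNA, -0.036 ± 0.06. ADAR had 0.15 ± 0.13, and PRMT5-shRNA replicate 2 alone was high, at 423 CPM beside 301 to 337 CPM in the other 5 libraries. SAMHD1, which hydrolyses deoxynucleotides, was irregular in both groups, at 21.9, 22.8 and 42.6 CPM in NC-shRNA and 38.7, 44.0 and 19.0 CPM in PRMT5-shRNA libraries. It fell into a low and a high level that crossed the groups, and its log2 fold change of 0.22 ± 0.37 had a 95% interval of -0.66 to 1.10.

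The nuclear body proteins SP110 and SP100 are neighbours on chromosome 2 and differed by similar small amounts. SP110 was at 16.9, 16.8 and 16.4 CPM in NC-shRNA and 18.7, 18.1 and 18.8 CPM in PRMT5-shRNA libraries (log2 fold change 0.15 ± 0.08 SE, edgeR adjusted p = 0.497). SP100 was at 27.0, 29.7 and 28.8 CPM against 31.5, 31.8 and 32.8 CPM (0.17 ± 0.08 SE, edgeR adjusted p = 0.407). Neither pair of groups overlapped. IRF7, the transcription factor that amplifies interferon production, was near-silent at 0.962 FPKM and had 0.094 ± 0.25, with PRMT5-shRNA replicate 3 the lowest of all 6 libraries at 2.05 CPM and replicate 1 the highest at 3.85 CPM.

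Of the remaining effectors, EPSTI1 was the member with an unadjusted p under 0.05. EPSTI1 was at 5.38, 4.14 and 4.64 CPM in NC-shRNA and 5.77, 6.61 and 6.52 CPM in PRMT5-shRNA libraries, with PRMT5-shRNA replicate 1 just above the highest control (0.42 ± 0.15 SE, edgeR adjusted p = 0.323). PLSCR1, a phospholipid scramblase, was at 27.8, 30.2 and 28.2 CPM against 31.1, 31.0 and 30.3 CPM. The gap between those groups was smaller than the spread of the controls, and the log2 fold change was 0.099 ± 0.07 (SE, edgeR adjusted p = 0.623). SAMD9L, a growth-restraining antiviral protein, was at 4.63, 5.68 and 4.84 CPM against 7.29, 5.23 and 7.63 CPM, so PRMT5-shRNA replicate 2 lay among the controls (0.41 ± 0.18 SE, edgeR adjusted p = 0.409). Its neighbour SAMD9 had 0.16 ± 0.12, and LGALS3BP, a secreted glycoprotein at 71.8 FPKM, had 0.029 ± 0.06. XAF1 had 0, 0 and 28 counts in NC-shRNA and 0, 15 and 14 counts in PRMT5-shRNA libraries, and RTP4 had 12 to 52 counts in any library, so neither allowed a usable estimate (standard errors of 1.76 and 0.60).

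**Figure D3:**
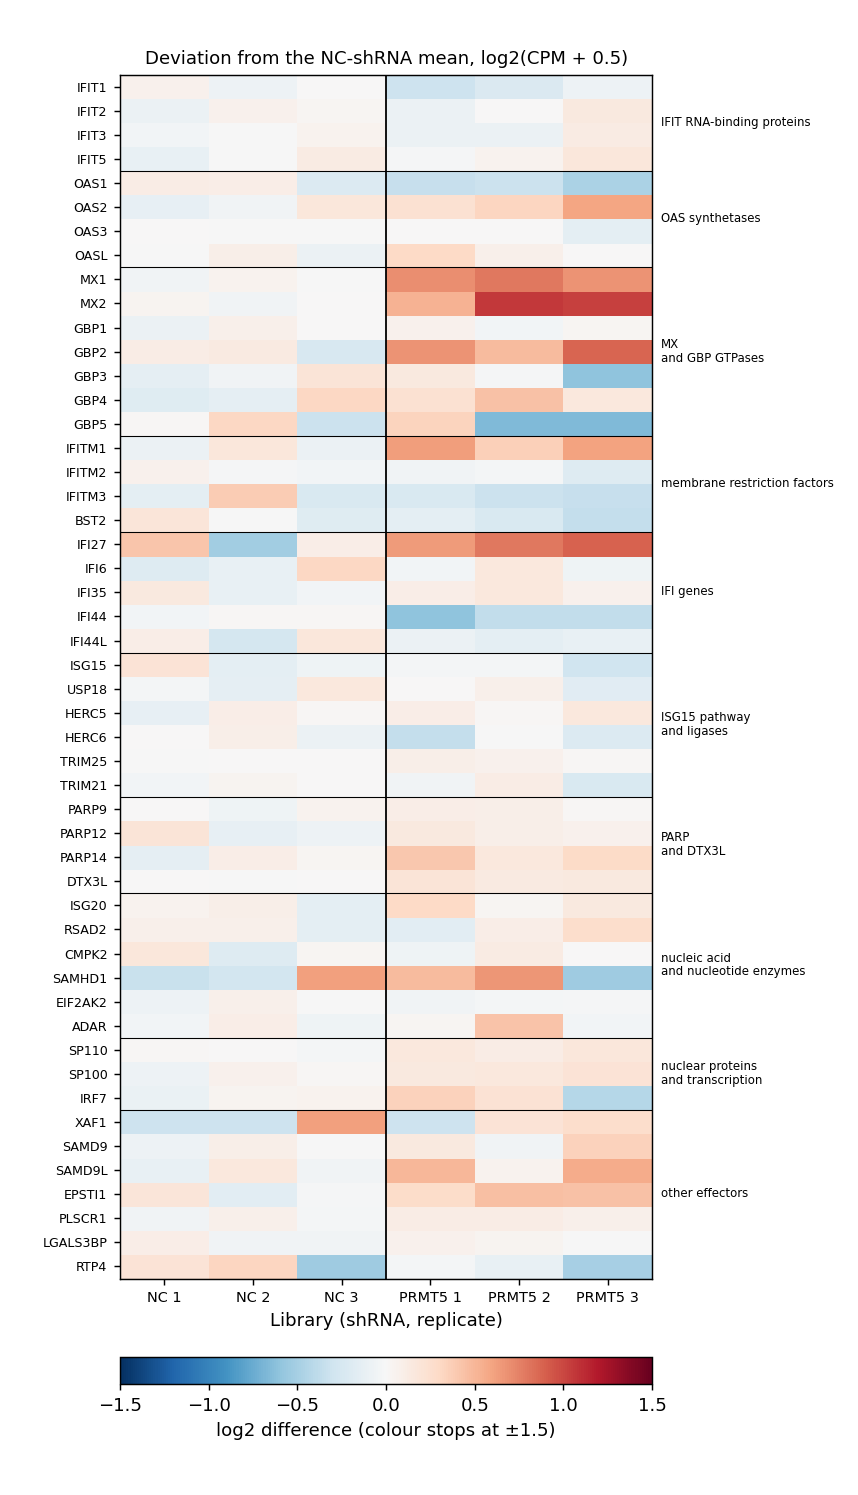
Colour map of the difference of log2(CPM + 0.5) from the NC-shRNA mean, for the 50 ISGs (rows, grouped by role) in the 6 libraries (columns), red for higher and blue for lower, with the scale stopping at ±1.5. The rows of MX1, MX2, GBP2, IFI27 and IFITM1 are red in all 3 PRMT5-shRNA columns, IFI44 and OAS1 are blue there, and SAMHD1 changes colour within both groups.

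Neighbours in the genome did not always share a direction. Of the 50 ISGs, 30 lay in 11 groups whose members were at most 200 kilobases apart (GENCODE release 29). MX1 and MX2 were both higher, and the SP, SAMD9 and PARP groups were fitted higher throughout. In contrast, the OAS and IFITM groups each held a higher and a lower or level member, GBP2 stood above its neighbours, and IFIT1 alone of the 4 IFIT genes had an unadjusted p under 0.05. Members of a group share their surroundings and, for some, sequence, so they are not independent genes.

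**Figure D4:**
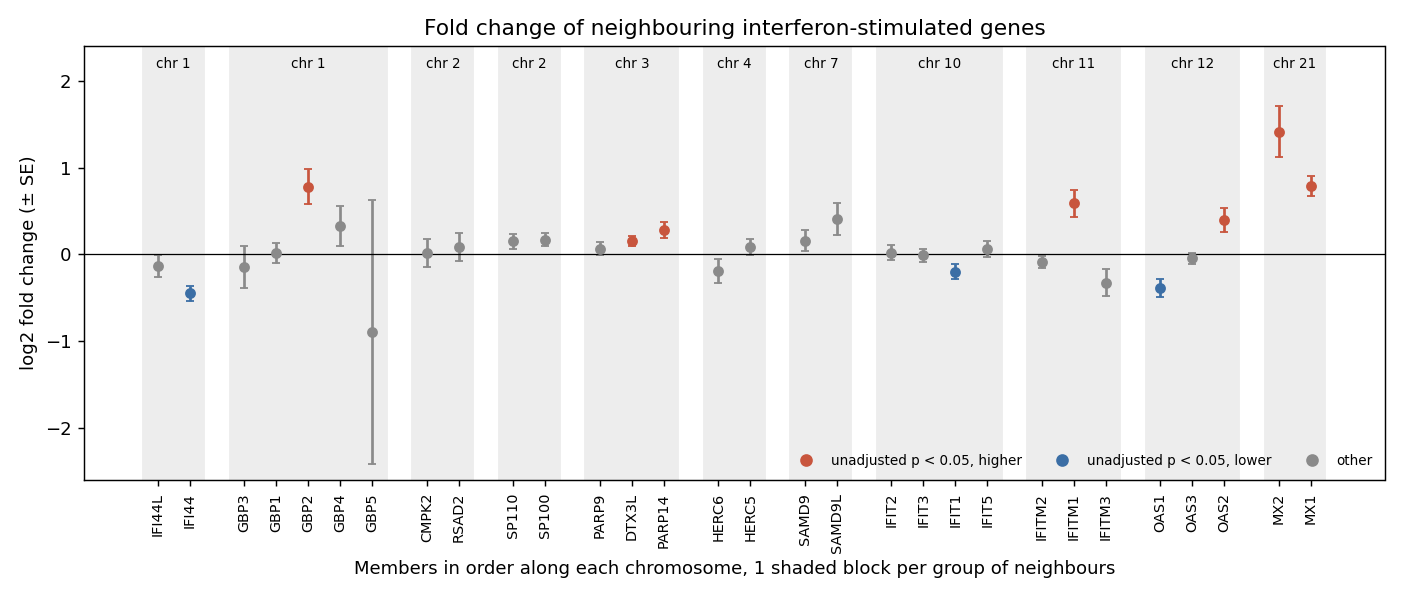
Log2 fold change (y axis, ± SE) of the 30 ISGs that lie in groups of neighbours, in their order along each chromosome (x axis, a shaded block per group). MX2 and MX1 are both above 0, whereas the OAS block runs from OAS1 at -0.39 to OAS2 at 0.40.

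The pathway upstream of the ISGs was taken from a list of 50 genes of ligands, receptors, kinases, transcription factors and inhibitors, of which 29 were expressed enough to be tested. With edgeR, none reached an adjusted p under 0.05, and 3 of the 29 were higher and 1 lower at an unadjusted p under 0.05, beside 6.54% and 6.29% of all genes. Of 21 interferon ligand genes only IFNE and IFNL1 could be tested, and no ligand reached a mean above 0.482 FPKM. All 6 receptor genes, each basally expressed, were fitted higher, beside 46.8% of all basally expressed genes. Only IFNLR1, the receptor chain specific to type III interferon, had an unadjusted p under 0.05. IFNLR1 was at 1.13, 1.07 and 1.17 FPKM in NC-shRNA and 1.70, 1.5 and 1.70 FPKM in PRMT5-shRNA libraries, without overlap (log2 fold change 0.47 ± 0.11 SE, edgeR adjusted p = 0.218). IFNAR1 and IFNAR2, the chains of the type I receptor, had 0.12 ± 0.09 and 0.26 ± 0.20, and IFNGR1 and IFNGR2, those of the interferon gamma receptor, had 0.35 ± 0.26 and 0.0026 ± 0.08. The IFNGR1 value rested on NC-shRNA replicate 1, at 12.3 FPKM beside 24.6 to 28.8 FPKM in the other 5 libraries, and that of IFNAR2 on NC-shRNA replicate 2, at 3.10 FPKM beside 4.92 to 5.78 FPKM. IL10RB, the partner chain of IFNLR1, had 0.57 ± 0.30 and likewise rested on PRMT5-shRNA replicate 3, at 6.66 FPKM beside 2.67 to 3.14 FPKM in the other 5 libraries.

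Of 8 transcription factors tested, 4 were fitted higher and 4 lower, with a median log2 fold change of 0.014. STAT2 and IRF9, which act together at the ISRE, were the highest. STAT2 was at 3.49, 2.76 and 3.71 FPKM in NC-shRNA and 4.21, 4.62 and 5.63 FPKM in PRMT5-shRNA libraries, without overlap (log2 fold change 0.48 ± 0.15 SE, edgeR adjusted p = 0.294). IRF9 was at 1.07, 1.26 and 1.06 FPKM against 1.42, 1.34 and 1.52 FPKM, also without overlap (0.27 ± 0.13 SE, edgeR adjusted p = 0.439). IRF1, another interferon-induced transcription factor, had -0.011 ± 0.12, STAT3 0.038 ± 0.06, IRF2 -0.019 ± 0.10, IRF3 -0.026 ± 0.19 and IRF5 -0.11 ± 0.20. Of the inhibitors, SOCS3, which blocks receptor kinases, was at 22.2, 23.8 and 26.0 FPKM against 31.0, 30.2 and 30.5 FPKM (0.29 ± 0.06 SE, edgeR adjusted p = 0.196), and PIAS2 was at 0.810, 0.780 and 0.820 against 0.720, 0.660 and 0.720 FPKM (-0.26 ± 0.09 SE, edgeR adjusted p = 0.323).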

How the data were processed

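RNA of the 6 NCI-H460 libraries was sequenced as stranded mRNA, per the study's methods. The authors trimmed reads with cutadapt 1.9, mapped them with HISAT2 2.0.4 and estimated expression with StringTie 1.3.4d, per the submitters' processing notes. The labels name GRCh38 and the methods GRCm38, a mouse build; the gene identifiers are human. The authors deposited an estimated count per gene, already whole and not normalized, and FPKM values, which correct for gene length and library size. How strand and overlapping genes were counted is not given in the sources used here.

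Groups and replicate numbers came from the sample labels. The 50 ISGs, their role groups, the pathway list and the marker lists were chosen with earlier results of these data known. Estimated counts were filtered with filterByExpr (20295 of 58825 genes kept), scaled by TMM and tested with edgeR's quasi-likelihood test (edgeR 4.0.16, R 4.3.3) with Benjamini-Hochberg adjustment over all genes tested. Standard errors came from the F statistic. ISGs with an unadjusted p under 0.05 or with groups that did not overlap were given in every library, and the others by level and fitted value. A fold change over 1.5 was also combined with an unadjusted p under 0.05. Alternatives were other scalings and filters, counts divided by 4, DESeq2 1.42.0, limma 3.58.1 on log2(FPKM + 1) or log2(FPKM + 0.1) with a minimum mean of 0.5 FPKM or none, a linear model per gene, class limits of 0.5 and 2 FPKM, a block for the replicate number and the omission of each library. The edgeR, DESeq2 and limma fits were first run on simulated counts with known changes, and the other steps were not. The smallest chi-square per degree of freedom between 2 libraries was 42.2, so no library was a duplicate of another. Precision is limited by 3 libraries per group and, for genes near 0 FPKM, by low counts. Positions came from GENCODE release 29 and promoters from RefSeq. A member of the pathway list and a promoter sequence are not reported here.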

Additional observations from a re-analysis of the deposited data

How the results depend on the processing

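Of the 50 ISGs, the 17 with an unadjusted p under 0.05 or groups that did not overlap were recomputed one by one. None of their 280 values changed sign, and 277 stayed on the same side of the adjusted threshold. These 17 were picked for their difference in the main fit to the same libraries. Groups that do not overlap also keep their order when 1 library is left out. The unchanged signs were thus largely fixed by that choice and lend no support. The other ISGs, many of them fitted close to 0, were not followed one by one, and their signs may differ between settings. The 3 exceptions came from DESeq2, which called 2 higher ISGs, MX1 (log2 fold change 0.78, adjusted p = 8.8e-04) and MX2 (1.41, adjusted p = 0.044), and 1 lower, IFI44 (-0.46, adjusted p = 0.0076). The adjusted p of these genes over all alternatives reached 0.366 for MX1, 0.447 for MX2 and 0.415 for IFI44. The 5 ISGs higher past both thresholds became 0 with limma on log2(FPKM + 1), filtered or not, and with the linear model per gene. With log2(FPKM + 0.1) there were 2 (MX1 and IFITM1). The share of all genes higher past both thresholds, 2.53% in the main fit, changed as well. It was 0.639% with limma on log2(FPKM + 1), 0.284% without the filter, 0.388% with the linear model and 2.07% with log2(FPKM + 0.1). The minimum of 0.5 FPKM left MX2, GBP2 and IFI27 untested in the filtered fits, and a pseudocount shrinks the fold of genes near 0 FPKM by construction. Leaving out 1 library gave 3 to 5 higher ISGs, against 2.02% to 3.07% of all genes. It gave 0 to 1 lower ISGs (GBP5, without PRMT5-shRNA replicate 1), against 1.08% to 1.7%.

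The median over all 50 ISGs was 0.11 without TMM, a scaling that moved the median of all genes to 0.057, and 0.12 with log2(FPKM + 0.1). Leaving out 1 library gave 0.039 (without PRMT5-shRNA replicate 2) to 0.085. The median of basally expressed ISGs was 0.095 without TMM, 0.095 on log2(FPKM + 1) in all 3 such fits and 0.10 on log2(FPKM + 0.1), and 0.021 (without NC-shRNA replicate 1) to 0.059 with 1 library left out. The median of near-silent ISGs moved most with the setting, and on log2(FPKM + 1) it lay below that of basally expressed ISGs, the opposite order to edgeR. It was 0.26 without TMM, 0.33 with a mean count of at least 10, 0.072 on log2(FPKM + 1) with limma and with the linear model, 0.079 without the filter, 0.13 on log2(FPKM + 0.1) and 0.42 with counts divided by 4. It was 0.33 and 0.13 with class limits of 0.5 and 2 FPKM, and 0.14 to 0.39 with 1 library left out (0.39 without NC-shRNA replicate 3, 0.35 without PRMT5-shRNA replicate 1, 0.31 without PRMT5-shRNA replicate 3). Some of these settings tested fewer ISGs (43 with the FPKM filter, 47 with counts divided by 4, 49 with a mean count of at least 10). A pseudocount also shrinks the folds of near-silent ISGs by construction, and otherwise the cause was not tested.

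The replicate numbers are shared only as numbers. Deviations of same-numbered libraries correlated at 0.053, -0.018 and 0.029, so the samples were not treated as pairs. With the replicate block, the near-silent median was 0.37 and PRMT5 had -1.62 with an edgeR adjusted p of 0.144. At an unadjusted p under 0.05, 6 ISGs were higher and 3 lower with the block, against 9 and 4 without it. With a fold change over 1.5 as well, 5 ISGs were higher, against 2.28% of all genes, and 0 lower, against 1.13%. The linear model gave PRMT5 -1.49 with an adjusted p of 0.091. Depth limits MX2, GBP5, XAF1 and RTP4, whose counts were low or at 0. Sequence shared among relatives limits IFITM1, IFITM2, IFITM3, USP18 and GBP2.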
